A study of Homo sapiens with 6 samples.

Results

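Hi-C mapped domains in the inactive, B compartment of HCT116 cells, and 211 of them had a counterpart in DKO1. DKO1 is a derivative of HCT116 that is labelled as a knockout of 2 DNA methyltransferases. HCT116 is a widely used cell line from a human colorectal carcinoma, and the labels give DKO1 as a knockout of DNMT1 and DNMT3B in it. There are 6 libraries, 3 of the parental line, labelled WT, and 3 of DKO1. All 3 labels of a line name the same compartment track and the same domain list, so that each line has 1 pooled value per position and no replicate error. DKO1 stands for the knockouts by 1 derivative line only. The effect of the knockouts and other differences of that line cannot be told apart.

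The domains were selected on measured values: the mean compartment score of the domain in HCT116 was below 0, and a domain of the DKO1 list overlapped it over at least 80% of the length of both. Only domains of 2 Mb or less on chromosomes 1 to 22 with at least 1 scored bin were taken. These numbered 4057 of the 4289 listed in HCT116, and 1297 of them were B domains. Among the B domains, 211 were kept, 1016 were lost, that is covered by DKO1 domains over less than 20% of their length, and 70 were in between. The HCT116 score, the lengths and the positions of the domains in both lists are therefore part of the selection and are given as description. All comparisons below are between 1 map per line, and no test was possible. Intervals beside shares are Wilson intervals at 95%, which cover counting error only and take domains as independent.

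Chromatin of the nucleus separates into an A compartment, which is open, gene-rich and transcribed, and a B compartment, which is compact, gene-poor and often found at the nuclear lamina. Within both, topologically associating domains are stretches that contact themselves more than their surroundings, often delimited where loop extrusion by cohesin is halted at the factor CTCF. DNMT1 copies DNA methylation onto newly replicated strands and DNMT3B sets it anew, and CTCF binds many of its sites less well when they are methylated. The compartment score used here, PC1, is a first principal component, taken here from contacts in bins of 20 kb. It is positive in A and negative in B, and is given in units of its SD within each chromosome.

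B domains were kept less often than domains of A. Of all 4057 domains, 1450 (35.7%) were kept. The share was 16.3% (14.4 to 18.4) among the 1297 B domains and 44.9% among the 2760 domains of A, and A had the higher share on 22 of 22 chromosomes. The DKO1 list is the shorter, with 1823 domains in all. Seen from DKO1, where 287 domains were B by the DKO1 track, 218 (76.0%) had a match in HCT116, against 85.9% of the 1434 A domains. The DKO1 list thus holds few B domains, and most of those it does hold were also listed in HCT116.

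The kept domains mostly had ends at or next to the same positions, which the overlap rule largely fixes. At a median length of 280 kb and 80% overlap, an end moved by more than 1 step of the 40 kb grid excludes a domain. The sizes of the moves are therefore description. Both ends were identical in 103 of the 211 (48.8%), and a further 98 shared 1 end. Among kept A domains 62.2% had both ends identical. The larger of the 2 end moves was 40 kb, 1 step of the grid, in 101 kept B domains, 80 kb in 6 and 120 kb in 1. The DKO1 counterpart was longer in 49 cases, shorter in 54 and of equal length in 108. Longer and shorter counterparts were therefore about as frequent. Each kept domain had its own counterpart, with 211 distinct DKO1 domains.

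The overlap threshold fell between a few domains. The domains just inside it, at 80%, included those at 152880001 to 153200000 of chromosome 1, 19640001 to 19960000 of chromosome 14 and 83880001 to 84080000 of chromosome 15. Just outside were the domain at 8760001 to 9240000 of chromosome 19 with 78.6%, that at 78480001 to 78840000 of chromosome 16 with 77.8% and that at 70560001 to 70800000 of chromosome 14 with 75%. For the score, the kept domains nearest to 0 were at 86000001 to 86320000 of chromosome 10, 10120001 to 10400000 of chromosome 4 and 15680001 to 15920000 of chromosome 19, with means between -0.02 and -0.01. On the other side, 3 kept domains with means of 0.01 to 0.02 counted as A, the nearest at 157920001 to 158120000 of chromosome 1. A call of B close to 0 is thus a matter of very small differences.

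Kept B domains were less deeply B than lost ones. Their HCT116 PC1 had a median of -0.69, with quartiles of -1.17 and -0.27 and a range from -2.04 to -0.01. Lost B domains had a median of -0.91, with quartiles of -1.39 and -0.46. The share kept was 8.0% (5.12 to 12.3) of the 225 domains below -1.5, 13.3% (10.1 to 17.3) of the 345 from -1.5 to -1, 19.4% (15.6 to 23.9) of the 345 from -1 to -0.5 and 20.9% (17.2 to 25.3) of the 382 from -0.5 to 0. The medians were ordered in this way on 17 of 22 chromosomes, with chromosomes 2, 5, 7, 12 and 21 in the opposite order. Shares of the upper 2 classes lay within each other's interval.

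**Figure D1:**
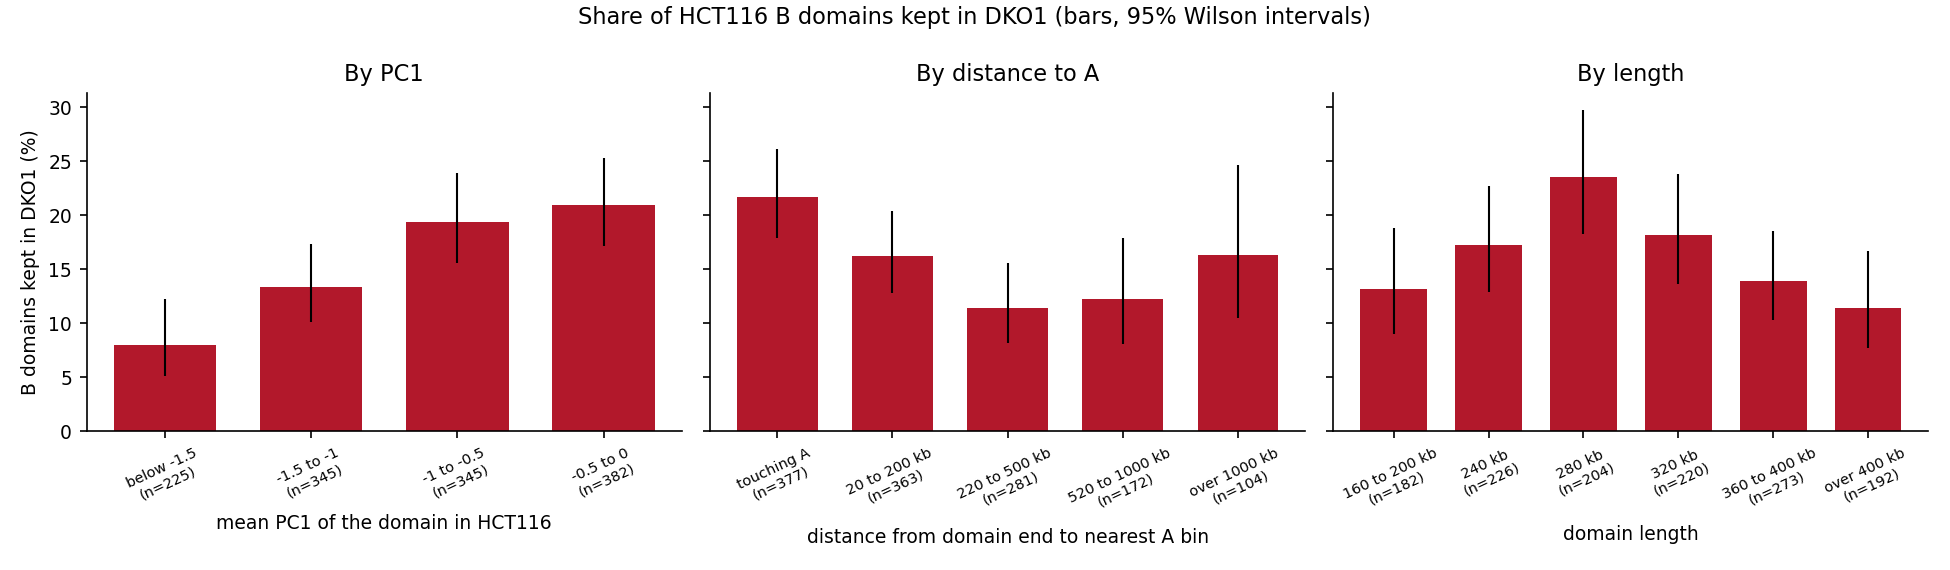
Share of HCT116 B domains kept in DKO1 in percent (bars, with 95% Wilson intervals as lines), by mean HCT116 PC1, by distance from the domain's ends to the nearest A bin, and by length; n is the number of B domains in each class. The share is 8.0% in the deepest class and 20.9% in the shallowest, 21.8% for domains touching A and 11.4% at 220 to 500 kb, and 23.5% at a length of 280 kb.

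Even so, some kept domains lay in the deepest B chromatin. The lowest score was that of a 440 kb domain at 31760001 to 32200000 of chromosome 7, whose score was -2.04 in the parental line against -0.97 in DKO1. It was followed by a domain of 280 kb at 33400001 to 33680000 of chromosome 22, whose values of -1.89 and -1.74 differed little. Chromosome 6 held the next 3. These were at 12640001 to 12920000 with -1.74 and -1.05, at 162320001 to 162760000 with -1.74 and -0.93, and at 166280001 to 166560000 with -1.68 and -0.22. All 3 were thus closer to 0 in DKO1. Lost B domains of chromosome 6 were higher in DKO1 as well. The median difference there, DKO1 minus HCT116, was 0.79 in kept and 0.71 in lost B domains, against 0.18 and 0.19 over all chromosomes.

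The other 5 of the 10 deepest were also higher in DKO1, by 0.17 to 0.48. The domain at 1040001 to 1360000 of chromosome 9, near the end of its short arm, had -1.65 in HCT116 and -1.48 in DKO1. The one at 130520001 to 130880000 of chromosome 12 had -1.65 and -1.31, and that at 53600001 to 53920000 of chromosome 17 had -1.64 and -1.36. At 34880001 to 35240000 of chromosome 1 the values were -1.64 and -1.47, with both ends at the same positions in the 2 lists. The domain at 178320001 to 178560000 of chromosome 5 stood apart among these, with -1.64 and -1.16 inside and a mean of -0.53 in the 200 kb on either side. Of the 18 kept domains below -1.5, on 12 chromosomes, none touched A and each had a higher score in DKO1, by 0.02 to 1.46. Neither trait was particular to kept domains. Only 3 of all 225 B domains below -1.5 touched A. The median rise was 0.22 in these kept domains and 0.33 in the 190 lost domains below -1.5, with lower quartiles of 0.13 and 0.14.

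Lost domains of average depth show the opposite case. The lost domain nearest the median of its group was at 153560001 to 153880000 of chromosome 6, with -0.91 in HCT116 and -0.97 in DKO1. No DKO1 domain covered any of it, although its score was nearly the same. Next came the domains at 35000001 to 35600000 of chromosome 5, with -0.91 and 0.03, and at 48680001 to 48880000 of chromosome 16, with -0.91 and -0.87. On chromosome 7 the domain at 149760001 to 149960000 had -0.90 and -0.44, and that at 124680001 to 125000000 had -0.90 and -1.05. The score thus moved up, moved down or stayed at domains that were lost.

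PC1 within the domains differed between the lines by about the same amount whether the domain was kept or lost. In DKO1 the kept domains had a median PC1 of -0.52, with quartiles of -0.93 and -0.12, and the lost ones -0.72, with quartiles of -1.13 and -0.25. The difference, DKO1 minus HCT116, had a median of 0.18 in kept and 0.19 in lost domains. The quartiles were -0.12 and 0.50 against -0.05 and 0.56. It was above 0 in 143 of 211 kept domains (67.8%) and in 727 of 1016 lost ones (71.6%). The order of the 2 medians was split over the chromosomes, with kept higher on 10 and lower on 12. It turned when chromosomes 8, 10, 16, 17 and 18 were left out, with medians of 0.24 and 0.22. The size of the difference depended on where 0 was set. With the chromosome median subtracted from each track, the medians were 0.32 in 254 kept and 0.33 in 1099 lost domains.

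Large differences were no more frequent in kept than in lost domains. Taking a difference of over 0.5 as large, PC1 was higher in DKO1 in 557 of all 4057 domains (13.7%) and lower in 312 (7.69%), and among B domains in 27.7% and 5.63%. Of the kept B domains, 53 (25.1%, 19.7 to 31.4) were higher and 11 (5.21%, 2.94 to 9.09) lower by this margin. In lost domains the counts were 287 (28.2%, 25.6 to 31.1) and 62 (6.10%, 4.79 to 7.75). The shares of kept domains lie near the background of B domains in both directions. Because B domains were chosen by a low score in HCT116 alone, a higher score in the other track is partly given by that choice.

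Among domains of similar HCT116 PC1 the DKO1 values were close as well. Below -1.5 the median DKO1 PC1 was -1.39 in kept and -1.35 in lost domains, and from -1.5 to -1 it was -0.93 in both. From -1 to -0.5 the medians were -0.58 and -0.51, and from -0.5 to 0 they were -0.19 and -0.30. The median difference was smallest in the shallowest class in both groups. It was 0.32 in kept and in lost domains from -1.5 to -1, and 0.02 and -0.04 from -0.5 to 0. The interquartile ranges of the kept and lost groups overlapped in each class.

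**Figure D2:**
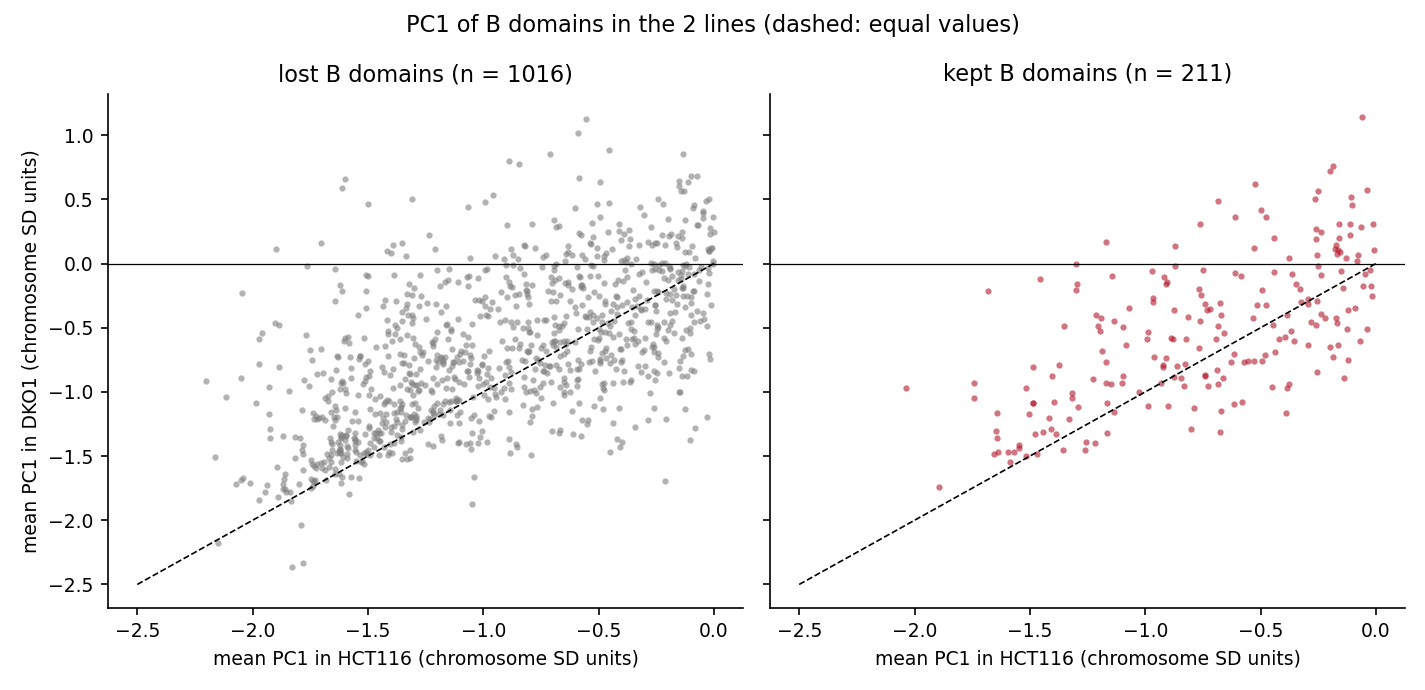
Mean PC1 of each lost (left) and kept (right) B domain in HCT116 (horizontal axis) and DKO1 (vertical axis), in units of the SD of a chromosome; the dashed line marks equal values and the solid line PC1 of 0 in DKO1. Both clouds lie mostly above the dashed line, with a median difference of 0.18 in the 211 kept and 0.19 in the 1016 lost domains.

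A positive score in DKO1, that is compartment A, was found in kept and in lost domains. It was found in 178 of the 1297 B domains (13.7%). Among kept domains it was found in 38 (18%, 13.4 to 23.8), and among lost ones in 131 (12.9%, 11 to 15.1). The intervals overlap. The 38 kept domains that were A in DKO1 lay on 16 chromosomes and were mostly shallow in HCT116, with a median of -0.18 and quartiles of -0.42 and -0.11. Of these, 23 touched an A bin in HCT116. Their surroundings had a positive mean PC1 over 200 kb on either side in 10 cases in HCT116 and in 21 in DKO1. Of the 131 lost domains that were A in DKO1, 70 touched an A bin in HCT116. The surroundings of these lost domains had a positive mean in 46 cases in HCT116 and in 104 in DKO1.

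Domains with a much higher score in DKO1 were among those kept. The largest difference was 1.46, at 166280001 to 166560000 of chromosome 6, where both ends were the same in the 2 lists. On the same chromosome, where lost B domains had a median difference of 0.71, the domain at 760001 to 1480000 went from -1.46 to -0.12. At 210320001 to 210560000 of chromosome 1 the score went from -1.17 to 0.17, and at 58480001 to 58720000 of chromosome 5 from -1.30 to 0.00. The highest DKO1 value among the kept domains was at 142040001 to 142360000 of chromosome 7, with -0.06 in HCT116 and 1.14 in DKO1. Around it the mean over 200 kb went from -0.89 to -0.01.

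Falls were smaller than rises. The largest was -0.77, at 87320001 to 87600000 of chromosome 3, from -0.39 to -1.17. Then came 70520001 to 70760000 of chromosome 4 with -0.75 and 117800001 to 118040000 of chromosome 12 with -0.64. The domains at 14880001 to 15200000 of chromosome 19 and 108640001 to 108920000 of chromosome 12 differed by -0.63 and -0.59 and touched A in HCT116. In 4 of these 5 domains both ends were the same in the 2 lists, and in the other 1 end moved by 40 kb.

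Kept domains lay closer to compartment A. The nearest A bin of HCT116 was a median of 40 kb from an end of a kept domain, with an upper quartile of 330 kb and a maximum of 2400 kb, and a median of 140 kb from a lost domain, with an upper quartile of 440 kb. Of the kept domains 82 (38.9%, 32.5 to 45.6) touched an A bin, against 276 lost ones (27.2%, 24.5 to 30.0). The share kept was 21.8% for domains touching A, 16.3% at 20 to 200 kb, 11.4% at 220 to 500 kb, 12.2% at 520 to 1000 kb and 16.3% beyond 1000 kb. It therefore did not go on falling with distance, although the last class held only 104 domains with 17 kept.

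Distance to A went with depth in B, and most of the difference was absent among domains of similar PC1. The median HCT116 PC1 was -0.33 for B domains touching A and -1.31 for those 220 to 500 kb away. Within classes of PC1 the median distance was 360 kb in kept and 480 kb in lost domains below -1.5, 290 and 260 kb from -1.5 to -1, 40 and 60 kb from -1 to -0.5, and 0 kb in both from -0.5 to 0. Averaged over these classes, weighted by the number kept, the difference was -10.05 kb in place of -100 kb. By chromosome, kept domains had the smaller median on 13 and the larger on 8.

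A few kept domains were remote from A. The farthest were 2 overlapping domains at 50520001 to 51280000 and 50280001 to 50560000 of chromosome 11, at 2400 and 2160 kb, with scores of -1.26 and -1.52 that were -1.45 and -1.5 in DKO1. The first of these had scores in only 15 of its bins for a length of 760 kb, and was also the longest kept domain. The third was at 77680001 to 78160000 of chromosome 16, at 1960 kb, with PC1 of -0.17 and -0.64, although 6 of its own 24 bins were A in HCT116, and the next at 10800001 to 11040000 of chromosome 17, at 1780 kb, with -1.55 and -1.42. The domain at 209720001 to 210000000 of chromosome 1, at 1660 kb, went from -0.50 to 0.41, and lies in the same B interval of 3620 kb as the kept domain at 210320001 described above. Distances are to A bins outside the domain and run over bins without a score, such as those of centromeres.

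Around the domains, PC1 was higher for kept than for lost domains in both lines, and at equal depth the difference was smaller or turned. Over 200 kb on either side the median was -0.44 in HCT116 and -0.26 in DKO1 for kept domains, and -0.65 and -0.46 for lost ones. The medians were ordered in this way on 18 chromosomes in HCT116 and on 19 in DKO1. From HCT116 to DKO1 the surroundings differed by a median of 0.16 around kept and 0.17 around lost domains. Averaged over classes of the domain's own PC1, the difference between kept and lost in HCT116 turned to -0.018, and that in DKO1 was 0.045 in place of 0.20. With flanks of 1000 kb the differences were 0.07 and 0.13.

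**Figure D3:**
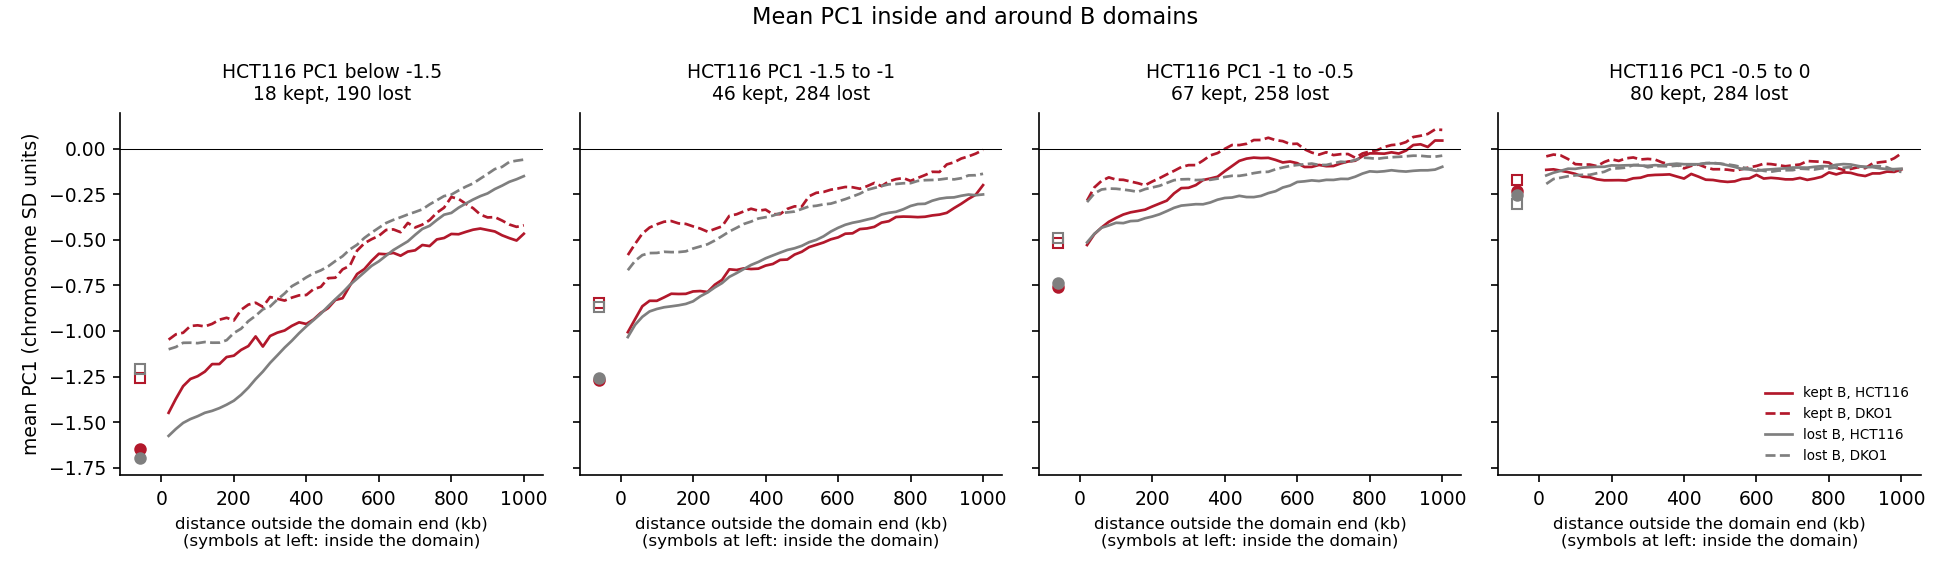
Mean PC1 (vertical axis, in units of the SD of a chromosome) inside B domains (symbols at left, filled for HCT116 and open for DKO1) and at 20 to 1000 kb outside their ends (lines, solid for HCT116 and dashed for DKO1), for kept and lost domains in 4 classes of HCT116 PC1 with the number of domains above each panel. Next to the domains the DKO1 lines lie above the HCT116 lines in the 3 deeper classes, for kept and lost domains alike. In the shallowest class all 4 lines run near each other.

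What surrounded a domain on its 2 sides went with being kept, with depth not held equal. Of the 97 B domains with a positive mean on both sides in HCT116, which are islands of B in A, 29 were kept (29.9%, 21.7 to 39.6). The share was 18.3% (15.1 to 22.1) of the 464 with sides of opposite sign, which lie at a compartment border, and 13.2% (10.9 to 15.8) of the 735 with a negative mean on both sides. The 29 kept islands lay on 18 chromosomes and had a median score of -0.28 that was -0.46 in DKO1, with a median difference of -0.12. Around them PC1 was 0.47 and 0.37. In 28 of the 29 the surroundings also had a positive mean in DKO1. The 58 lost islands had medians of -0.23 inside in HCT116 and -0.24 in DKO1. Domains with other surroundings were deeper in B. With sides of opposite sign the median HCT116 PC1 was -0.56 in kept and -0.59 in lost domains. With a negative mean on both sides it was -0.99 and -1.27.

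Kept B domains had the sharper change of PC1 at their ends. This step was measured as the absolute difference between the mean PC1 of the 100 kb just inside and just outside an end, averaged over the 2 ends. The step is not itself a criterion of the selection, although it comes from the same tracks. In HCT116 its median was 0.43 in kept domains, with quartiles of 0.25 and 0.64, and 0.31 in lost ones, with quartiles of 0.15 and 0.50. In DKO1 the medians were 0.44 and 0.28. On 18 of 22 chromosomes the HCT116 median was higher in kept domains, with chromosomes 8, 11, 16 and 21 as the exceptions. When all B domains were sorted by their HCT116 step into 3 classes of 432, the share kept was 10.6% (8.08 to 13.9), 15.3% (12.2 to 19.0) and 22.9% (19.2 to 27.1) from the smallest to the largest step.

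The larger step of kept domains was found at every depth and on each kind of surroundings. Below -1.5 the median step in HCT116 was 0.23 in kept and 0.15 in lost domains, from -1.5 to -1 it was 0.35 and 0.32, from -1 to -0.5 it was 0.46 and 0.37, and from -0.5 to 0 it was 0.49 and 0.37. In DKO1 the kept medians were higher in the 4 classes too, from 0.23 against 0.16 to 0.48 against 0.33. Among domains with a negative mean on both sides, of which 6 of the 97 kept and 10 of the 596 lost touched an A bin, the HCT116 medians were 0.28 and 0.19. They were 0.55 and 0.49 where the sides had opposite sign, and 0.72 and 0.48 in islands. The quartile ranges of kept and lost domains overlapped in all of these.

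An example of a sharp step at a domain with a low score is that of chromosome 5 at 178320001, with 0.96 in HCT116 and 0.56 in DKO1. This domain lay only 40 kb from an A bin, in a B interval of 740 kb. The remote domain of chromosome 17 at 10800001 had steps of 0.04 and 0.03 and was kept as well. Domains with hardly any step were therefore also listed in both lines. Kept domains with identical ends had a median HCT116 step of 0.46, and those with a moved end 0.36. In DKO1 the medians of these groups were 0.43 and 0.45.

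**Figure D4:**
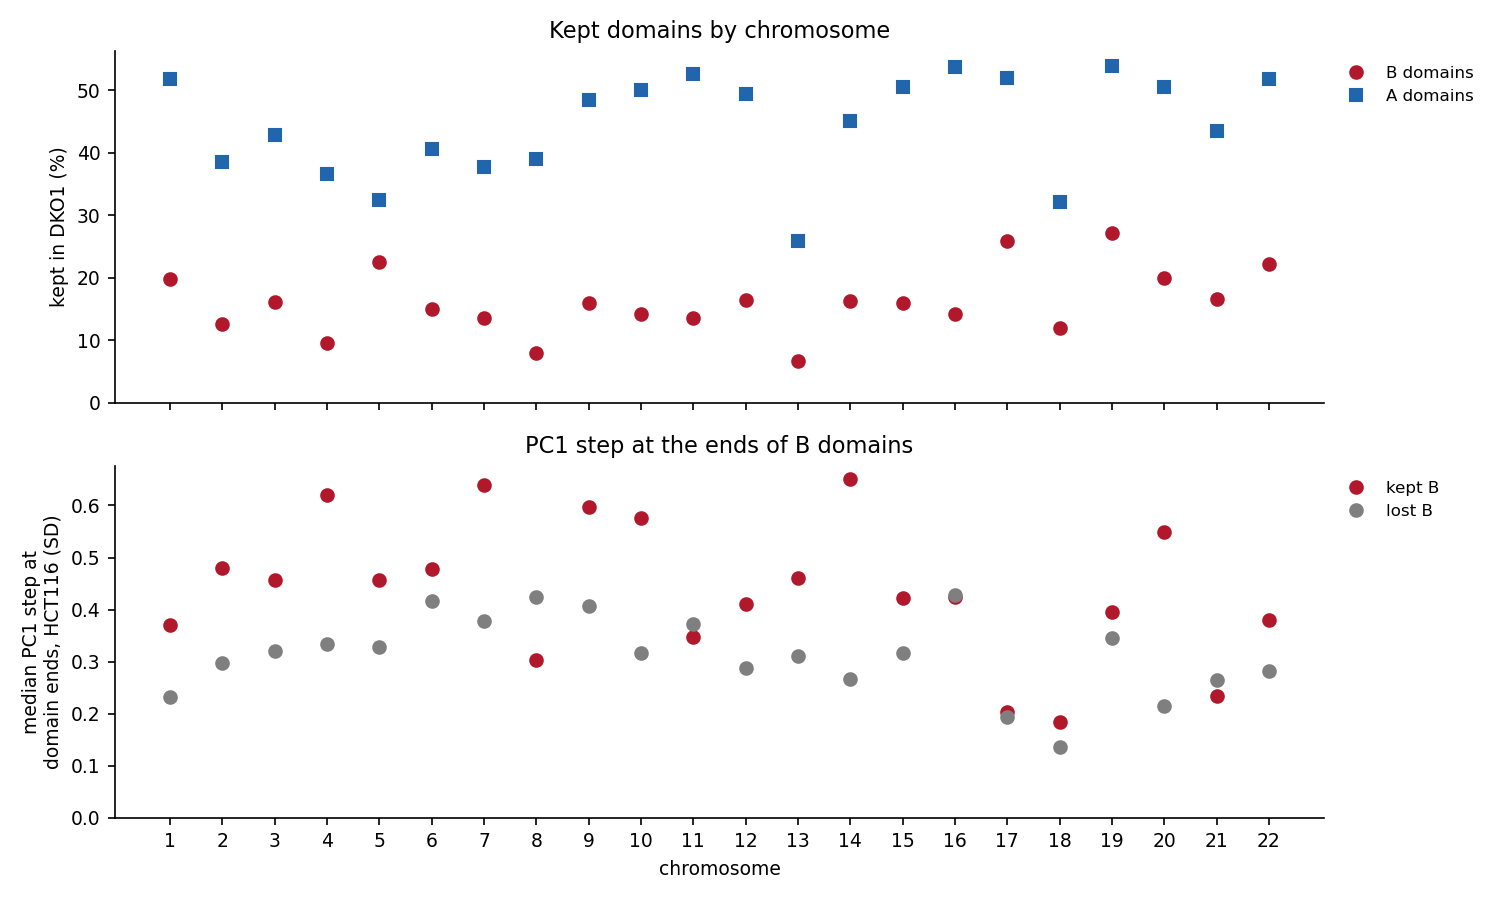
Upper panel, the percentage of B domains (circles) and A domains (squares) of HCT116 kept in DKO1 on chromosomes 1 to 22; lower panel, the median PC1 step at the ends of kept and lost B domains in HCT116, in units of the SD of a chromosome. A is above B on all 22 chromosomes in the upper panel, and kept B domains are above lost ones on 18 in the lower.

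Chromosomes differed in the share of B domains kept. Among those with at least 20 B domains it was highest on chromosome 19, with 13 of 48 (27.1%), chromosome 17, with 14 of 54 (25.9%), and chromosome 5, with 14 of 62 (22.6%). The lowest shares were found on chromosome 13, with 3 of 45 (6.67%), chromosome 8, with 5 of 63 (7.94%), and chromosome 4, with 5 of 52 (9.62%). Chromosomes 13 and 4 were also low for A domains, with 25.9% and 36.5%, and chromosome 19 was high with 53.9%. Chromosome 5 did not follow this, since only 32.5% of its A domains were kept. These shares rest on 3 to 14 kept domains each.

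Length set kept and lost domains apart by 1 grid step. The median was 280 kb for kept and 320 kb for lost domains, and both groups had a lower quartile of 240 kb and an upper one of 360 kb. The share kept was highest at 280 kb, with 48 of 204 (23.5%, 18.2 to 29.8), and lower in shorter and longer domains, with 13.2% (9.02 to 18.9) at 160 to 200 kb and 11.5% (7.69 to 16.7) over 400 kb. A domains had the same form, with 39.5% at 160 to 200 kb, 51.1% at 320 kb and 33.1% over 400 kb. On the grid of 40 kb a move of 1 end takes a larger share of a short domain, so the overlap rule itself bears on the shortest class. With an overlap of 90%, or with B domains below -0.5 only, the medians were equal at 320 kb.

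The longest kept domains were often incompletely scored. After the domain of chromosome 11 named above came 1 of 720 kb at 760001 to 1480000 of chromosome 6, with all 36 bins scored and a DKO1 counterpart whose end lay 120 kb away. Another of 720 kb, at 86360001 to 87080000 of chromosome 8, had 26 scored bins and a PC1 of -0.15 and -0.06, with A on both sides. The domain of 680 kb at 21600001 to 22280000 of chromosome 20 had 34 bins and values of -1.55 and -1.44. That of 680 kb at 67680001 to 68360000 of chromosome 9 had 10 bins and went from -0.87 to 0.14. In all, 4 kept domains had scores in under 80% of their bins, against 11 lost ones. The longest lost domains were at 21200001 to 22600000 of chromosome 15 with 1400 kb, and at 118520001 to 119360000 and 103480001 to 104280000 of chromosome 1 with 840 and 800 kb.

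Kept domains lay nearer to the ends of their chromosomes. The distance to the nearest scored end of the chromosome had a median of 20.8 Mb for kept and 29.9 Mb for lost domains, and was smaller for kept domains on 18 of 22 chromosomes. The share kept was 27.1% (19.6 to 36.2) within 5 Mb of an end, 20.8% (14.6 to 28.7) at 5 to 10 Mb, 17.7% (13.6 to 22.8) at 10 to 20 Mb, 15.7% (12.4 to 19.8) at 20 to 40 Mb and 11.8% (9.12 to 15.2) beyond 40 Mb. The distant class holds domains of long chromosomes only. As a percentage of the scored chromosome length, the medians were 17.7% and 22.9%, and the median over chromosomes of the difference was -4.62 Mb in place of -9.05 Mb. Domains of A also had a higher share within 5 Mb (55.0%) than beyond 40 Mb (40.7%).

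The difference by position was largest in the shallower B domains. From -0.5 to 0, 30.3% of domains within 20 Mb of an end were kept and 15.4% of the others, and from -1 to -0.5 these shares were 29.8% and 14.3%. From -1.5 to -1 the order was opposite, with 10.7% and 15.1%. Below -1.5 the share was again higher within 20 Mb, with 9.90% (10 of 101) and 6.45% (8 of 124). The 10 kept domains of this last group within 20 Mb include the domain of chromosome 9 at 1040001.

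Neighbours of kept B domains were kept more often than those of lost ones, mainly around the shallower domains. Of the next domains in the HCT116 list on either side, 134 of 420 (31.9%) were kept beside kept domains and 414 of 2021 (20.5%) beside lost ones. Both shares lay below the 35.7% kept among all 4057 domains. Beside kept domains the share was higher than beside lost ones on 17 of 22 chromosomes. Neighbours in B were kept in 58 of 248 cases (23.4%) against 169 of 1317 (12.8%), set against 16.3% of all B domains. Neighbours in A were kept in 76 of 172 cases (44.2%) against 245 of 704 (34.8%), set against 44.9% of all A domains. Beside kept domains this was near the share of all A domains, and beside lost ones below it. By the PC1 of the domain itself, the shares beside kept and lost domains were 19.4%, or 7 of 36, and 18% below -1.5, and 23.9% and 22.7% from -1.5 to -1. They were 35.1% and 17.7% from -1 to -0.5, and 36.7% and 22.5% from -0.5 to 0. A neighbour can be counted from both of its sides.

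Neighbours often shared an end with the domain. Of the neighbours of kept domains 57.6% abutted them, and 43.7% of those of lost domains did; the part of shared ends in the difference was not tested. Among abutting B neighbours 26.1% and 15.7% were kept. Among B neighbours separated by a gap the shares were 17.1%, or 14 of 82, and 11.2%, or 62 of 554, and for all neighbours separated by a gap the difference was 6.58 percentage points in place of 11.4. Beyond 500 kb the order was opposite, with 20.3% of 74 beside kept and 23.1% of 520 beside lost domains. The higher share beside kept than beside lost domains was therefore seen among near neighbours only. Of the remote ones 15 and 120 were kept, and they were not split by compartment.

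**Figure D5:**
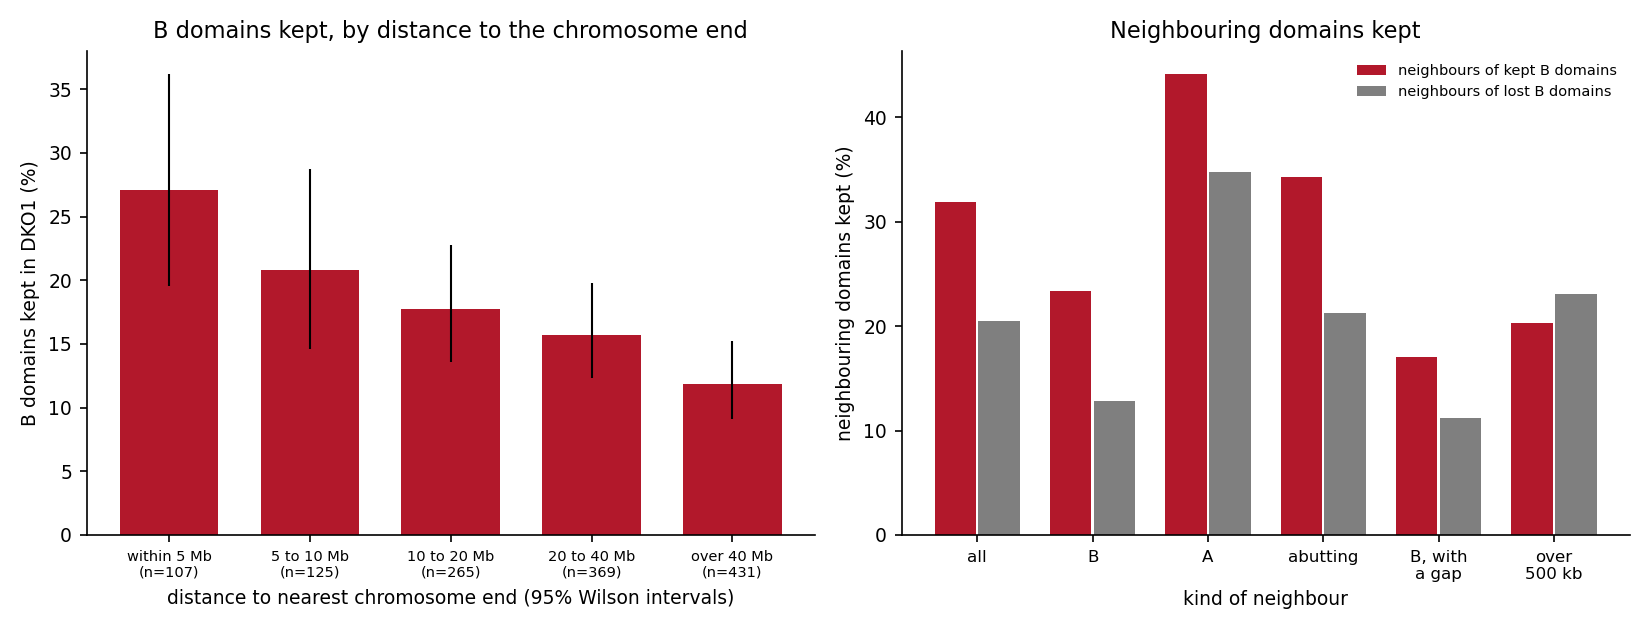
Left, the percentage of B domains kept by distance to the nearest end of the chromosome (bars, with 95% Wilson intervals as lines and the number of B domains per class); right, the percentage of neighbouring HCT116 domains kept beside kept and beside lost B domains, for 6 kinds of neighbour. The share is 27.1% within 5 Mb and 11.8% beyond 40 Mb, and neighbours are kept more often beside kept domains except beyond 500 kb.

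Domains packed against others were kept more often. Of the 298 B domains that abutted a domain at both ends 71 (23.8%, 19.3 to 29.0) were kept, of the 605 with 1 abutting domain 16.9% (14.1 to 20), and of the 394 with none 9.64% (7.11 to 13). Domains of A had 54.7%, 45.0% and 30.5%. B domains that overlapped another HCT116 domain were kept in 16 of 152 cases (10.5%, 6.58 to 16.4), against 17% (15 to 19.3) of the others.

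Both lists were denser around kept domains. Other HCT116 domains within 1 Mb had a median of 5 around kept domains, with quartiles of 3 and 6, and of 4 around lost ones, with quartiles of 2 and 5. In the DKO1 list, within 1 Mb on either side and wholly outside the domain, lay a mean of 1.80 DKO1 domains for kept and 1.12 for lost domains, a difference of 0.68 that was 0.35 as a median over chromosomes. For kept domains 17.5% (13 to 23.2) had none there, against 39.1% (36.1 to 42.1) of lost ones. The share kept was 8.31% (6.09 to 11.3) of the 445 B domains with no other DKO1 domain within 1 Mb and 26.8% (21.4 to 32.9) of the 224 with 3 or more. The 37 kept domains without another DKO1 domain nearby were deeper in B, with a median score of -1.14, or -0.68 in DKO1, and 260 kb from A in the median. How many domains a caller lists in a region depends on depth and settings, neither of which the labels state, and their part in these shares was not tested.

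Most kept B domains had no kept B domain next to them in the list, where 16.3% of all B domains were kept. Of the neighbours of kept domains 41.0% were in A, and of those in B 58 of 248 (23.4%) were kept. Of the 211, 157 had no kept B domain next to them, 42 formed 21 pairs and 12 formed 4 chains of 3. The longest chain by span was at 11560001 to 12920000 of chromosome 6, with PC1 from -1.74 to -0.48 in HCT116 and from -1.05 to -0.33 in DKO1. The chain at 47200001 to 48520000 of chromosome 1 ranged from -1.26 to -0.32 and from -1.39 to -0.30. That at 33920001 to 35240000 of chromosome 19 touched A with each of its domains and was lower in DKO1, with -0.56 to -0.36 and -0.76 to -0.53. The fourth, at 142040001 to 142920000 of chromosome 7, ranged from -1.10 to -0.06 in HCT116 and from -0.50 to 1.14 in DKO1, the widest spread of the 4. Of the pairs the one with the largest span, at 162320001 to 166560000 of chromosome 6, encloses 4240 kb, with 440 and 280 kb in its domains.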

How the data were processed

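Hi-C of 6 libraries, 3 per cell line, was used through 4 pooled files. Per the labels and file headers, the deposited PC1 score covers 20 kb bins. It has mean 0 and SD 1 in each of chromosomes 1 to 22 and X. The deposited domain lists give positions on a 40 kb grid, without scores, counts or depth. HOMER 4.6, HiC-Pro and hg19 (GRCh37) come from the submitters' processing notes, without roles; the domain caller is not given in the sources used here. Positions are 1-based on hg19. Genes and sequences were not used here, because the reference tables are on another build.

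Bins present in both tracks (140474) were used. Of the autosomal domains of 2 Mb or less, 12 had no scored bin. Neighbours are among the domains described. No test was run, since each line has 1 map. The members and lists were chosen with earlier results of these data known; steps at domain ends, chromosome position, surrounding patterns, abutting and local density were added after seeing the data. Named regions follow a fixed rule: extremes of PC1, length, distance and difference, thresholds, chains and chromosomes; the chromosome 5 and 17 examples of steps were chosen after their values were seen. The matching function was tested on simulated data, where 100 of 100 copied domains were recovered. Python 3.11.15, numpy 2.4.6, pandas 2.3.3 and scipy 1.17.1 were used.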

Additional observations from a re-analysis of the deposited data

How the results depend on the processing

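No paired analysis was possible because the 3 replicates of a line name the same pooled files, and no replicate can be left out for the same reason. Without counts or depth, what depth limits is unknown.

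The share of B domains kept, 16.3%, was 9.64% at 90% reciprocal overlap, 14.3% with B set below -0.5 and 13.6% with every bin below 0. The larger step of PC1 at the ends of kept domains kept its direction, and stayed within 1.5 times its main value, in the 15 alternatives tried for each line. The other values are differences, kept minus lost. For length, -40 kb, they were 0 kb at 90% overlap and with B below -0.5, and -10 kb as a median over chromosomes. Averaged within classes of HCT116 PC1, they were -10.05 kb for distance to A, 0.010 for PC1 in HCT116, 0.016 for PC1 in DKO1, -0.018 (reversed) for PC1 around the domain in HCT116, 0.045 around it in DKO1 and 0.017 (reversed) for the PC1 difference between lines. PC1 in DKO1 differed by 0.074 with B below -0.5. With flanks of 500 kb PC1 around the domain differed by 0.12 in both lines, with flanks of 1000 kb by 0.070 in HCT116 and 0.13 in DKO1, and in DKO1 by 0.33 as a median over chromosomes. The PC1 difference between lines, -0.015, was -0.057 at 90% overlap, 0.024 (reversed) without chromosomes 8, 10, 16, 17 and 18, -0.0085 without overlapping domains, -0.0026 with at least 80% of bins present and -0.035 over chromosomes. Distance to the chromosome end, -9.05 Mb, was -4.51 Mb with B below -0.5 and -4.62 Mb over chromosomes. The number of other DKO1 domains within 1 Mb differed by 0.35 over chromosomes, and the share of neighbours kept by 6.58 percentage points for neighbours with a gap. The causes were not tested. Averages within PC1 classes, medians over chromosomes, the bin minimum, the gap rule and the step windows were chosen after seeing the data.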

Other observations

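Lost B domains were not all without trace in the DKO1 list. Both ends of 25 of the 1016 (2.46%, 1.67 to 3.61) lay within 40 kb of an end of some DKO1 domain, and 180 (17.7%) had 1 such end, while 811 (79.8%) had none. At 13 of the lost domains both ends coincided exactly with ends of DKO1 domains, so that neighbouring domains were listed and the domain between them was not. Of the 1016, 976 were not covered by any DKO1 domain at all.

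The step of PC1 at the ends was ordered differently in A. Kept A domains had a median step of 0.18 in HCT116 and 0.24 in DKO1, and the 1521 A domains that were not kept had 0.20 and 0.28. In B the kept domains had the larger step, with 0.43 against 0.31 in HCT116.

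Over a window reaching 1 Mb beyond each end, PC1 of the 2 tracks had a median correlation across bins of 0.91 at kept and 0.90 at lost B domains, with lower quartiles of 0.84 and 0.80. Neighbouring bins are not independent, and these are descriptions of the tracks. The interior of B domains was slightly more uneven in kept than in lost domains. The median SD over bins was 0.22 and 0.19 in HCT116 and 0.22 and 0.19 in DKO1. The interquartile ranges overlapped, and below -1.5 the HCT116 medians were both 0.10.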
